A study of Mus musculus with 6 samples.

Results

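The genes described here are 10 genes of cholesterol efflux and liver X receptor (LXR)-linked lipid handling, taken by symbol (Abca1, Abcg1, Nr1h3, Mylip, Lpcat3, Apoe, Ch25h, Soat1, Abcd2 and Abcg3) from the 24454 symbols of the count table, with transcript rows summed per symbol. PolyA-enriched RNA of macrophages, phagocytes taken from the peritoneum and kept in culture, was counted in 6 libraries. The mice were male wild-type C57BL6/J animals aged 6 to 8 weeks. The SGA360+LPS group received SGA360, which binds the aryl hydrocarbon receptor (AHR), at 10 µM for 1 h and then LPS at 10 ng/ml for 4 h. The LPS group received 10 ng/ml of LPS, the bacterial endotoxin that activates macrophages through TLR4, for 4 h. The vehicle group received vehicle for 5 h. Each group has 2 libraries. The labels name no vehicle pretreatment for the LPS group and do not tie the libraries to separate mice or cultures. Each p-value therefore rests on the spread among these 6 libraries alone, and that spread may be technical. Of the 10 genes, 8 passed the filter on low counts and were tested; Nr1h3 and Apoe did not pass it.

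A macrophage that takes up lipoproteins or dead cells must store or export the cholesterol it gains, since it cannot break the sterol ring down. Export runs through ABC transporters, which pass cholesterol to lipid-poor apolipoprotein or to high-density lipoprotein particles, and storage runs through esterification into lipid droplets. Oxysterols, oxidised forms of cholesterol, bind the LXRs, nuclear receptors that pair with retinoid X receptors at DR4 elements and raise transcription of the export genes. Inflammatory signalling through TLR4 is known to cross-talk with LXR in macrophages.

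After LPS the export gene Abca1 and the oxysterol enzyme gene Ch25h rose, the export gene Abcg1, the esterification gene Soat1 and the transporter genes Abcd2 and Abcg3 fell, and Mylip and Lpcat3 did not pass the test. The 8 tested genes span an estimated 14.5-fold rise of Ch25h and a 12.6-fold fall of Abcg3. Of these 8 genes, 6 were called in LPS against vehicle at an adjusted p under 0.05, while 36.4% of all 9389 genes tested were called. By direction, 2 of the 8 rose and 4 fell, against 19.4% and 17% of all genes tested. Their median log2 fold change was -0.60, between Abcg1 (-1.16) and Mylip (-0.04), against -0.01 over all genes tested. These genes were chosen with earlier results of these data known, so the shares and the median describe them and are no test. SGA360 before LPS moved none of the 8 past the threshold relative to LPS.

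**Figure D1:**
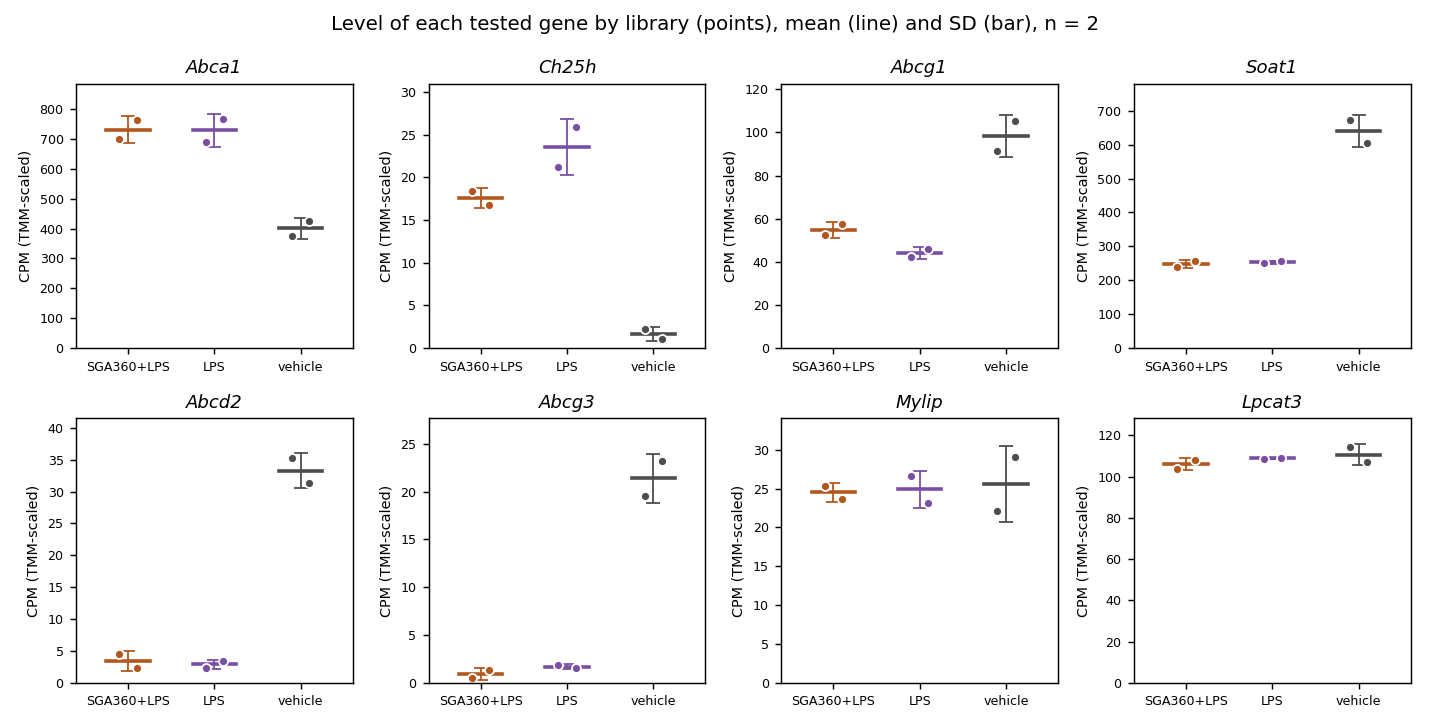
Expression of the 8 tested genes in CPM, read counts scaled to library size with TMM factors (vertical axes, each from 0) for each library (points), with the group mean (line) and SD (bar), in SGA360+LPS, LPS and vehicle cells, 2 libraries each. Abca1 and Ch25h stand higher in both LPS-treated groups than in vehicle cells, Abcg1, Soat1, Abcd2 and Abcg3 stand lower, and for Mylip and Lpcat3 the LPS and vehicle libraries overlap.

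Libraries held 7726973 to 9529817 counts. Vehicle replicate 1 stood apart: 10001 of its symbols had a count, against 12282 to 12643 in the other 5 libraries, and 4.92% of its counts fell on the ribosomal RNA precursor gene Rn45s, against 0.22% to 0.684%. Its part in the results was not tested beyond leaving it out, which kept the 6 calls. All 6 LPS response genes used to check the labels rose, among them Irg1, the itaconate-producing enzyme gene, with 4630 ± 207 CPM in LPS and 10.3 ± 0.29 CPM in vehicle cells (SD, n = 2 each). Macrophage markers were present in every library, with Lyz2 at 18250 to 22240 CPM and Csf1r at 593 to 817 CPM. Of the 10 macrophage markers, 9 had counts, and Itgam, which the table splits over several transcript rows, was listed at 0. Of the 9 tested, Adgre1 and Timd4 rose with LPS and Csf1r, Fcgr1, Mertk and Gata6 fell. Of all genes tested, 19.4% were called higher and 17% lower. Timd4 had a low level, averaging 7.41 CPM in LPS and 3.05 CPM in vehicle cells, which leaves its rise imprecise. Fcgr1 averaged 18.2 CPM in LPS and 95.5 CPM in vehicle cells, and Adgre1 1270 CPM in LPS and 515 CPM in vehicle cells. Counts of calls depended on single libraries: LPS against vehicle gave 3413 genes, 1820 higher and 1593 lower, but 2217 without LPS replicate 1, 2091 without LPS replicate 2 and 5494 without vehicle replicate 2. With upper-quartile scaling that split was 1460 higher and 1983 lower.

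Abca1, the transporter that loads cholesterol and phospholipid onto lipid-poor apolipoprotein A-I, lies at chr4:53030789-53159895 on the minus strand of mm10. It had 699.6 and 762 CPM in the SGA360+LPS libraries, 689 and 767 CPM in the LPS libraries and 375 and 426 CPM in the vehicle libraries. The LPS libraries lay above both vehicle libraries, and 2 of 2 SGA360+LPS libraries lay inside the LPS range. Abca1 rose 1.82-fold with LPS (log2 fold change 0.86, SE 0.0851, 95% interval 0.67 to 1.05, edgeR adjusted p = 2.49e-05). Its RefSeq promoter window on GRCm38.p6, chr4:53159846-53160145, minus strand, runs from 250 bases before to 50 after the transcript start and is shown because it holds letters like an LXR element. Capitals mark an E-box (CACGTG), a relaxed DR4 match and a TATA box (TATAAA).
Abca1: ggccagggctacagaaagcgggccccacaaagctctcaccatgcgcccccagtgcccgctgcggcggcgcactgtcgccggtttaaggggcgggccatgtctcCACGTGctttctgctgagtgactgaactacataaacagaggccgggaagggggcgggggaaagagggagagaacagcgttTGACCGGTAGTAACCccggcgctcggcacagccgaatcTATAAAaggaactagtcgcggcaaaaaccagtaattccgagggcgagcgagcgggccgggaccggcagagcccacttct
The relaxed DR4 match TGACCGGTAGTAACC lies 67 to 53 bases before the start, the E-box 147 to 142 and the TATA box 29 to 24. On the other strand it reads as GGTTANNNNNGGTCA, letters chosen with the known Abca1 element in view. Both strands of all 32851 RefSeq promoters were searched, and 0.0487% held this relaxed form, 7.15% an E-box and 13.6% a TATA box. The strict form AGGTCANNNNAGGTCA was in 0.0152% of promoters and in none of the windows of the 8 listed genes that have one. A match describes letters, not binding.

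Abcg1, which passes cholesterol on to mature high-density lipoprotein particles, lies at chr17:31057694-31117981 on the plus strand. It had 52.3 and 57.6 CPM in SGA360+LPS, 42.2 and 45.9 CPM in LPS and 91.5 and 105 CPM in vehicle libraries. The 3 groups did not overlap: vehicle libraries were highest and LPS libraries lowest. Abcg1 fell 2.23-fold with LPS (log2 fold change -1.16, SE 0.112, 95% interval -1.41 to -0.91, edgeR adjusted p = 2.07e-05). In these bulk samples, fewer cells of a type and less RNA per cell cannot be told apart. Abca1 and Abcg1, both textbook LXR targets, thus moved in opposite directions. The ratio of Abca1 to Abcg1 counts per exon length, which no scaling between libraries can change, was 7.57 and 7.49 in SGA360+LPS, 9.24 and 9.45 in LPS and 2.32 and 2.29 in vehicle libraries. Ranges of the 3 groups do not overlap in this ratio, and it was not tested further.

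Nr1h3 encodes LXR alpha, the receptor itself, and Apoe encodes apolipoprotein E, an LXR target that accepts effluxed cholesterol. Nr1h3 lies at chr2:91184061-91195116 and Apoe at chr7:19696244-19699188, both on the minus strand. The table splits Nr1h3 over 2 transcript rows and Apoe over 4. Nr1h3 had 1 and 3 counts in SGA360+LPS, 0 and 0 in LPS and 0 and 2 in vehicle libraries. Apoe had 0 counts in the SGA360+LPS and LPS libraries and 12 and 2 in vehicle libraries. Symbols with several rows hold few counts throughout the table: 5639 of them carry 1.87% of all counts, and 51.0% are at 0 in every library, against 37.1% of symbols with 1 row. The level of either gene cannot be read from these counts, and no fold is given.

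Mylip, the ubiquitin ligase that sends the LDL receptor to degradation, is on chr13:45389742-45411940, plus strand, and Lpcat3, an acyltransferase that places polyunsaturated fatty acids into phospholipid, on chr6:124663104-124704716, plus strand. Mylip had 25.4 and 23.6 CPM in SGA360+LPS, 26.6 and 23.2 CPM in LPS and 22.1 and 29 CPM in vehicle libraries, with overlapping groups. Its log2 fold change with LPS was -0.04 (95% interval -0.42 to 0.33, edgeR adjusted p = 0.864). Lpcat3 had 104 and 108 CPM in SGA360+LPS, 109 and 109 CPM in LPS and 114 and 107 CPM in vehicle libraries. The LPS libraries lie within the vehicle range, and the log2 fold change was -0.02 (95% interval -0.21 to 0.16, edgeR adjusted p = 0.848). For Lpcat3 this interval corresponds to 0.867- to 1.12-fold. Its exons overlap those of Emg1 on the opposite strand, which averaged 73.4 CPM in SGA360+LPS, 74.7 CPM in LPS and 55.1 CPM in vehicle cells, and the sources do not say whether counting used strand.

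**Figure D2:**
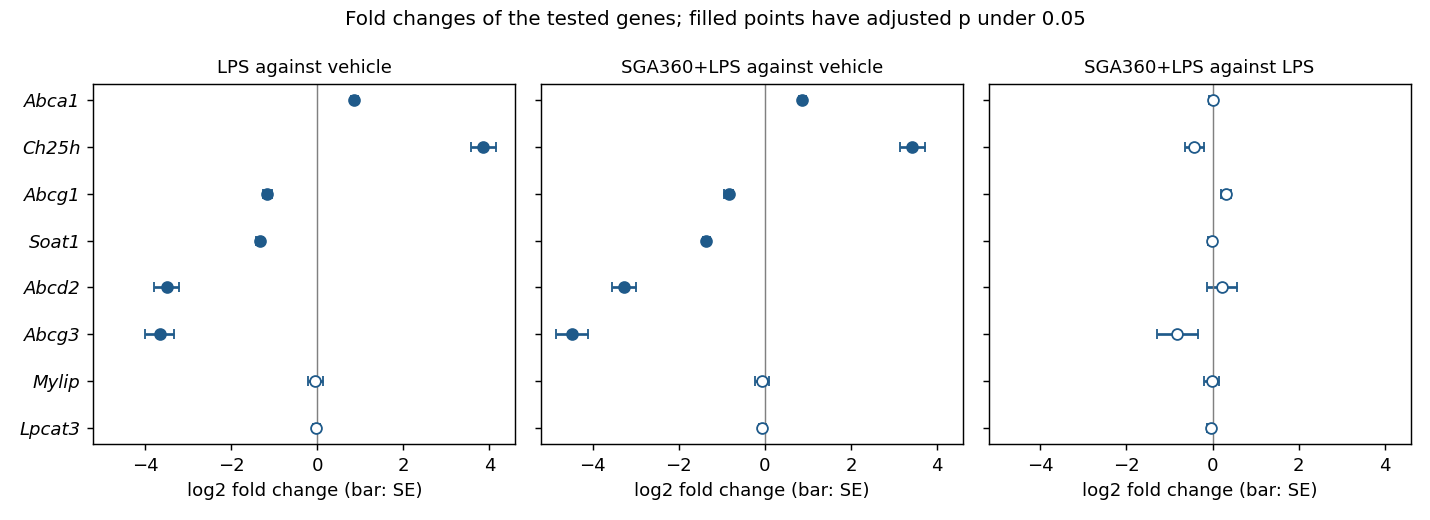
Log2 fold change (horizontal axis) of each of the 8 tested genes with its SE (bar), in LPS against vehicle, SGA360+LPS against vehicle and SGA360+LPS against LPS. Filled points, with an edgeR adjusted p under 0.05, are the same 6 genes in both comparisons with vehicle, where values span -4.48 to 3.85, and all points of SGA360+LPS against LPS are open.

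Ch25h makes 25-hydroxycholesterol, an oxysterol that binds LXR and restrains cholesterol synthesis. It lies at chr19:34473784-34475135 on the minus strand, and its exons overlap the antisense gene Gm26902, not in the table. It had 145 and 150 counts (18.4 and 16.8 CPM) in SGA360+LPS, 160 and 237 counts (21.3 and 25.9 CPM) in LPS and 20 and 10 counts (2.24 and 1.04 CPM) in vehicle libraries. Both LPS-treated groups lay far above the vehicle libraries, whose few counts leave the vehicle level imprecise. Ch25h rose 14.5-fold with LPS (log2 fold change 3.85, SE 0.293, 95% interval 3.2 to 4.51, edgeR adjusted p = 3.56e-06). Without vehicle replicate 1 the fold was 22.8, and the call held. Its promoter window, chr19:34475099-34475398 on GRCm38.p6, minus strand, is shown as the gene with the greatest rise among the 8. Capitals mark the AHR core, a TATA box and a cAMP response element (TGACGTCA).
Ch25h: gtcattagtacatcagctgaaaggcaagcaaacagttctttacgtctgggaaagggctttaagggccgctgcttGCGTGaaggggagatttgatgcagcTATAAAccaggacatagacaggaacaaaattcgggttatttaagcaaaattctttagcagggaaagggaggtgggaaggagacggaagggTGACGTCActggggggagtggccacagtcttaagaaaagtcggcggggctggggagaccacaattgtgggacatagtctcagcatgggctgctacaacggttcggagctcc
The AHR core, GCGTG, lies 176 to 172 bases before the start, the TATA box 151 to 146 and the cAMP response element 61 to 54. The AHR core occurred in 32.4% of all RefSeq promoters and the cAMP response element in 1.79%. The 8 listed genes with a window have 11 windows, of which 5 held the AHR core (Abcg3, Ch25h, Lpcat3, Mylip and Soat1). A kappa B site, searched by name, was in 8.46% of promoters and in none of these 8 genes.

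Soat1, the enzyme that esterifies cholesterol for storage in droplets, lies at chr1:156428108-156474328 on the minus strand. Its values were 240.2 and 258 CPM in SGA360+LPS, 249.7 and 256 CPM in LPS and 673 and 606 CPM in vehicle libraries. Vehicle libraries stood above all 4 LPS-treated libraries, and the LPS and SGA360+LPS ranges overlapped. Soat1 fell 2.53-fold with LPS (log2 fold change -1.34, SE 0.0744, 95% interval -1.5 to -1.17, edgeR adjusted p = 3.3e-07). Counts per exon length of Soat1 over Abca1, a ratio of RNA levels, were 0.737 and 0.726 in SGA360+LPS, 0.778 and 0.715 in LPS and 3.85 and 3.05 in vehicle libraries. Neither cholesterol storage nor export was measured. All 4 LPS-treated libraries had a value under 1 and both vehicle libraries one over 3. Soat1 against Nceh1, which hydrolyses cholesterol esters, was 2.31 and 2.4 in SGA360+LPS, 2.78 and 2.65 in LPS and 1.48 and 1.23 in vehicle libraries, so the hydrolase gene fell by more than Soat1.

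**Figure D3:**
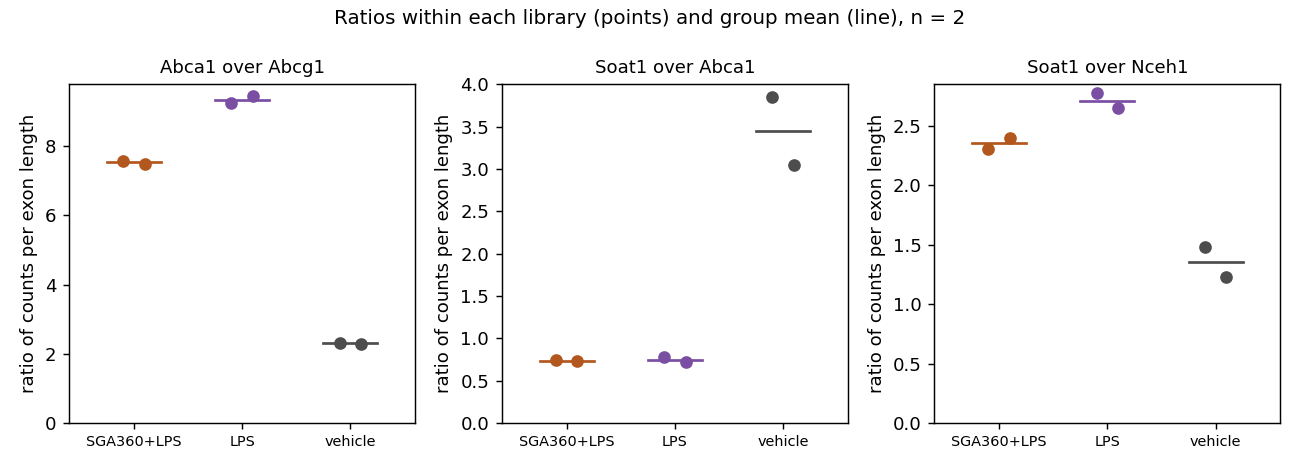
Ratios of counts per exon length within each library (points) with the group mean (line), vertical axes from 0, for Abca1 over Abcg1, Soat1 over Abca1 and Soat1 over Nceh1 in SGA360+LPS, LPS and vehicle cells. Abca1 over Abcg1 averaged 7.53 in SGA360+LPS, 9.35 in LPS and 2.3 in vehicle cells, and Soat1 over Abca1 averaged 0.732 in SGA360+LPS, 0.747 in LPS and 3.45 in vehicle cells.

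Abcd2, a peroxisomal transporter of very long-chain fatty acyl-CoA, is at chr15:91145871-91191807, and Abcg3, a mouse member of the ABCG family, at chr5:104935057-104982717, both on the minus strand. Abcd2 had 36 and 21 counts (4.57 and 2.35 CPM) in SGA360+LPS, 18 and 31 counts (2.39 and 3.39 CPM) in LPS and 315 and 301 counts (35.2 and 31.3 CPM) in vehicle libraries. It fell 11.3-fold with LPS (log2 fold change -3.50, SE 0.285, 95% interval -4.14 to -2.86, edgeR adjusted p = 5.99e-06). The SGA360+LPS and LPS libraries overlapped, and both lay below the vehicle libraries. Abcg3 had 4 and 12 counts (0.508 and 1.34 CPM) in SGA360+LPS, 14 and 14 counts (1.86 and 1.53 CPM) in LPS and 175 and 223 counts (19.6 and 23.2 CPM) in vehicle libraries. The 3 groups did not overlap, with SGA360+LPS lowest and vehicle highest. It fell 12.6-fold with LPS (log2 fold change -3.65, SE 0.336, 95% interval -4.41 to -2.9, edgeR adjusted p = 1.5e-05). Few counts remained for both genes after LPS, which limits what can be said of any further change. The Abcg3 window, chr5:104982668-104982967 on GRCm38.p6, minus strand, is shown as the gene with the greatest fall among the 8, and capitals mark the AHR core and the PU.1 core, both on the other strand.
Abcg3: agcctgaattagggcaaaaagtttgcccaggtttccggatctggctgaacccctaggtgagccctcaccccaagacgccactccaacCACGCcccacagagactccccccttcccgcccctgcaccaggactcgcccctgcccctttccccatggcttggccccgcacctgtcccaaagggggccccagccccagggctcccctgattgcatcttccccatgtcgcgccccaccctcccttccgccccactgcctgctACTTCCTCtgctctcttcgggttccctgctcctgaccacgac
The AHR core lies 163 to 159 bases before the start. The PU.1 core, GAGGAAGT, which reads ACTTCCTC on the printed strand, lies after the start and was found in 3.2% of all promoters. PU.1 is a factor of the macrophage lineage.

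Levels were compared between genes as CPM per kb of exon. Both LPS-treated groups ran Abca1, Soat1, Lpcat3 and Ch25h from the top, at 70.9, 51.8, 42.2 and 13 CPM per kb in SGA360+LPS cells and 70.6, 52.6, 43.3 and 17.4 CPM per kb in LPS cells. In vehicle cells Soat1 led with 133 ± 9.88 CPM per kb, ahead of Lpcat3 at 44 ± 2.1 and Abca1 at 38.8 ± 3.51 (SD, n = 2), and Ch25h was last at 1.21 ± 0.624. Neighbours whose libraries overlapped, and whose order is thus not settled, were Abcd2 and Abcg3 in SGA360+LPS cells, both Mylip and Abcg1, and Abcg3 and Abcd2, in LPS cells, and Mylip and Abcg3 in vehicle cells. Abca1 thus stood above Soat1 after LPS and below it in vehicle cells.

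**Figure D4:**
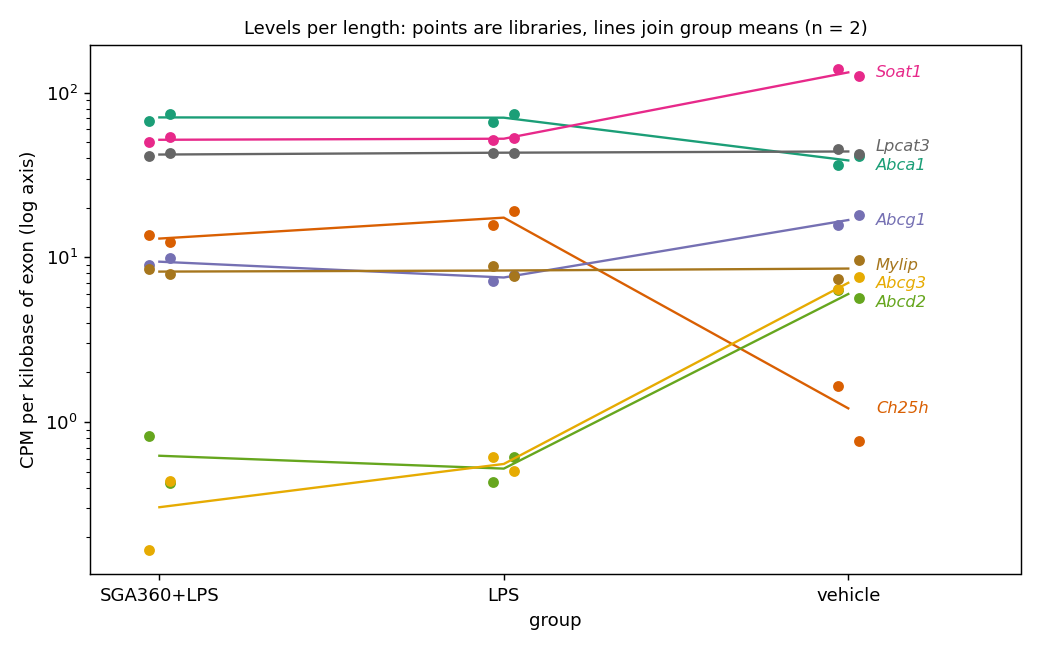
Level per exon length (CPM per kb, log axis) of the 8 tested genes in each library (points), with lines joining group means, in SGA360+LPS, LPS and vehicle cells. Abca1 lies highest after LPS with and without SGA360, at 70.9 and 70.6 CPM per kb, and Soat1 lies highest in vehicle cells at 133 CPM per kb.

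None of these genes passed the test for SGA360 given before LPS. In SGA360+LPS against LPS, 0 of the 8 were called by edgeR, 0 by DESeq2 and 0 by limma-voom, and 0.0746% of all genes tested were called (7 genes, or 0 to 16 as each of the 6 libraries was left out, with none of the 7 among the 10 or the pathway lists). The 2 groups did not overlap for 4 of the 8 genes, against 39.5% of all genes tested. Abcg1 was higher in 2 of 2 SGA360+LPS libraries than in both LPS libraries, with a log2 difference of 0.32 (SE 0.115, 95% interval 0.06 to 0.58, edgeR adjusted p = 1). It alone of the 8 had an unadjusted p under 0.05, at which 2.94% of all genes tested stood. The test shares its estimate of spread over all 3 groups, and vehicle replicates differed most (mean chi-square 43.7, against 4.12 for SGA360+LPS and 6.14 for LPS). With only the SGA360+LPS and LPS groups fitted, 9.03% of all genes tested had an unadjusted p under 0.05, and still none of the 8 was called. Ch25h had a log2 difference of -0.43 (95% interval -0.92 to 0.07), Abcg3 of -0.82 (-1.88 to 0.24; -1.71 without SGA360+LPS replicate 2 and -0.32 without SGA360+LPS replicate 1) and Lpcat3 of -0.04 (-0.22 to 0.15), each with both SGA360+LPS libraries below both LPS libraries and edgeR adjusted p = 1. Abca1 and Soat1 had 95% intervals of -0.18 to 0.19 and -0.19 to 0.15 on the log2 scale. Mylip (-0.4 to 0.36) and Abcd2 (-0.56 to 1.01) had wider intervals.

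SGA360+LPS against vehicle, which shares its vehicle libraries with LPS against vehicle, called the same 6 of 8 genes, 2 higher and 4 lower, where 33.1% of all genes tested were called, 17.9% higher and 15.2% lower. Log2 fold changes were 0.87 for Abca1, -0.84 for Abcg1, 3.43 for Ch25h, -1.36 for Soat1, -3.28 for Abcd2 and -4.48 for Abcg3, with the largest edgeR adjusted p of these 6 at 0.000213 (Abcg1). Mylip (-0.06) and Lpcat3 (-0.06) did not pass the test. Groups did not overlap for 6 of the 8 genes in both comparisons, against 65.9% of all genes in LPS against vehicle and 64.9% in SGA360+LPS against vehicle. Without SGA360+LPS replicate 2, which had 12 Abcg3 counts against 4 in replicate 1, the Abcg3 value was -5.34, and without vehicle replicate 1 the Ch25h fold was 16.9 in place of 10.8.

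Around these 10 genes, 135 further genes were listed by role, with earlier results of these data known, and 92 of them were tested. LPS against vehicle called 18 of them higher and 35 lower, against 19.4% higher and 17% lower of all genes tested. Without vehicle replicate 2 these were 29 and 39, and with upper-quartile scaling 13 and 40. SGA360+LPS against LPS called 0, by edgeR, DESeq2 and limma-voom alike. SGA360+LPS against vehicle called 20 higher and 35 lower (14 and 22 without SGA360+LPS replicate 1, 30 and 39 without vehicle replicate 2), against 17.9% higher and 15.2% lower of all genes tested. An unadjusted p under 0.05 in SGA360+LPS against LPS was held by 11 of the 92, against 2.94% of all genes tested, with an edgeR adjusted p of 1 in each. As each library was left out, this count ranged from 2 (without SGA360+LPS replicate 2 or LPS replicate 1) to 21 (without vehicle replicate 1), and the share of all genes from 0.777% (without SGA360+LPS replicate 1) to 8.61% (without vehicle replicate 1). Each list gene given as rising or falling with LPS had an edgeR adjusted p under 0.05. Among other LXR targets, 10 of 16 fell and 1 rose with LPS, with a median log2 fold change of -0.34. Mertk, a receptor for dead cells, averaged 26.1 CPM in SGA360+LPS, 23.1 CPM in LPS and 102 CPM in vehicle cells, with a log2 fold change of -2.14 with LPS. Plin2, a droplet coat protein gene, fell by 1.23 on the log2 scale. Of 9 receptor, partner and corepressor genes, 2 rose and 3 fell. Nrip1, a corepressor gene, rose by 1.01 and Tbl1xr1 fell by 0.74.

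Oxysterol genes went both ways, with 2 of 10 higher and 3 lower with LPS, again beside 19.4% higher and 17% lower of all genes tested, which holds for each list in LPS against vehicle. Cyp27a1, which makes 27-hydroxycholesterol, fell by 2.36 on the log2 scale, while Cyp7b1, which 7-alpha-hydroxylates oxysterols, rose by 1.36. Per exon length, Cyp7b1 over Ch25h was 0.619 and 0.664 in SGA360+LPS, 0.588 and 0.607 in LPS and 2.77 and 4.67 in vehicle libraries. In the list of ester and lysosomal handling, 4 of 11 rose and 4 fell, and the median of 0.10 lay near that of all genes. Nceh1 averaged 96.8 CPM in SGA360+LPS, 85.3 CPM in LPS and 435 CPM in vehicle cells, and fell by 2.35 on the log2 scale with LPS. Gramd1a, a sterol transfer gene of the endoplasmic reticulum, rose by 1.05. Uptake receptors had 3 of 9 higher and 3 lower. Olr1, the oxidised LDL receptor gene LOX-1, rose by 3.30, though its 3 transcript rows make its level uncertain. Cxcl16, a scavenger receptor and chemokine gene, rose by 2.22, while Stab1 fell by 0.97.

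Of the other ABC transporters of the A, D and G families, 4 of 10 fell and 0 rose with LPS, where 17% of all genes tested were called lower and 19.4% higher. Abcd4, a member of the D family, fell by 0.99 on the log2 scale. In peroxisomal lipid oxidation 8 of 15 fell and 0 rose with LPS, with a median of -0.57. Acox3, a peroxisomal acyl-CoA oxidase gene, fell by 1.75 and Crot, a carnitine acyltransferase gene, by 1.35. The list named lysophospholipid acyltransferases, which holds genes of more than 1 family, had 6 of 12 higher and 0 lower, with a median of 0.35. Lpcat2, known for making platelet-activating factor, rose by 2.12 and Agpat4 by 1.07. In SGA360+LPS against LPS, the medians of the 8 lists lay between -0.04 and 0.13.

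**Figure D5:**
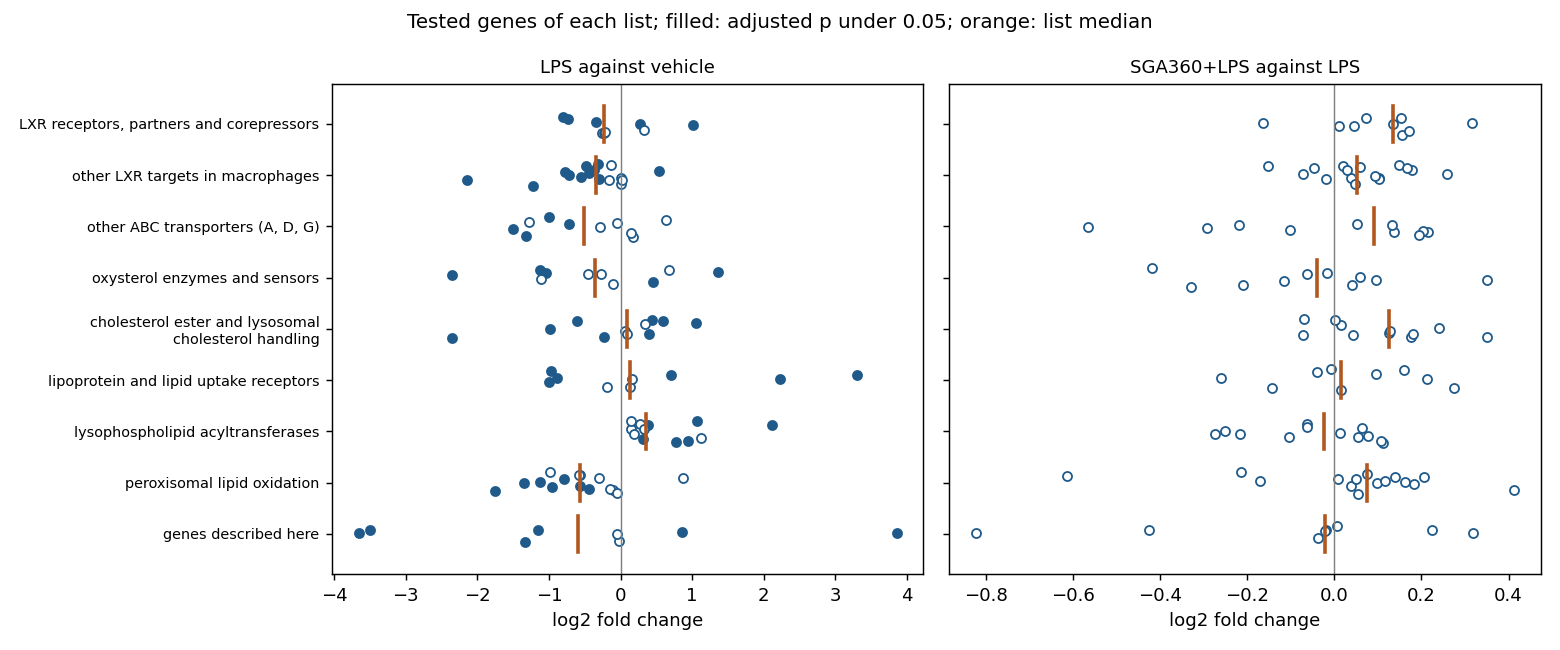
Log2 fold change of every tested gene of the 8 pathway lists and of the 10 genes described here (horizontal axes, whose scales differ between panels), with each list's median, for LPS against vehicle and for SGA360+LPS against LPS. Filled points have an edgeR adjusted p under 0.05. Medians in LPS against vehicle run from -0.60 for the described genes to 0.35 for lysophospholipid acyltransferases. All lists were made with earlier results of these data known.

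Summed mesothelial markers stood lower in both LPS-treated groups than in vehicle cells, with 346 and 365 CPM in SGA360+LPS, 352 and 354 CPM in LPS and 517 and 491 CPM in vehicle libraries. Of 8 tested markers 3 fell with LPS (Lrrn4, Upk1b and Upk3b), where 17% of all genes tested were called lower. Gpm6a was listed at 0 throughout. Fibroblast markers summed to 5208 and 4737 CPM in SGA360+LPS, 4725 and 4418 CPM in LPS and 4680 and 5379 CPM in vehicle libraries, with overlapping groups and Pdgfrb at 0. All 5 tested fibroblast markers had a log2 fold change below 0 with LPS (median -0.41, against -0.01 over all genes tested). Col3a1 fell, with 660 CPM in LPS and 877 CPM in vehicle cells on average. Summed markers of B cells (28.9 to 33.3 CPM), mast cells (75.2 to 90.2 CPM), neutrophils (4.69 to 15.4 CPM), dendritic cells (4.13 to 10.9 CPM) and T cells (at most 7.93 CPM) were low. Ly6g was at 0, as were S100a9, Clec9a, Ccr7, Kit, Cd79b and Cd8a, but these other 6, like Gpm6a and Pdgfrb, have several transcript rows, so their levels cannot be read. Of these lists 1 marker was called with LPS, the mast cell gene Fcer1a, which was higher. Its level was very low, averaging 1.68 CPM in LPS and 0.32 CPM in vehicle cells. The other 4 tested mast cell markers were not called. In every library the fibroblast marker Col1a1 (1735 to 2253 CPM) stood above Csf1r (593 to 817 CPM) and below Lyz2 (18250 to 22240 CPM). The part of all these cell types in the rises of Abca1 and Ch25h and the falls of Abcg1, Soat1, Abcd2 and Abcg3 was not tested.

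Genes nearest in pattern were found by the root mean square difference of centred log2 CPM over the 6 libraries. Nearest to Abca1 were Ptafr, the platelet-activating factor receptor gene (0.0332), and Tm9sf4 (0.0434), and nearest to Abcg1 were Tpra1 (0.0476) and Nbeal2 (0.0521). Ch25h lay nearest to the chemokine gene Ccl17 (0.14) and Vnn3 (0.196), and Soat1 to Frmd4b (0.0482) and the interleukin-7 receptor gene Il7r (0.0487). Abcd2 lay nearest to Arsg (0.205), which has 2 rows, and Angptl7 (0.239), and Abcg3 to P2ry12 (0.374) and Zbtb16 (0.548). Some neighbours had low levels, which leave their patterns imprecise. Over all libraries Zbtb16 averaged 0.799 CPM, P2ry12 2.01 CPM, Angptl7 2.89 CPM and Ccl17 2.91 CPM. For Mylip and Lpcat3, the 2 nearest genes were Anapc13 and Smarcd1, and Ube2e3 and Tceb3, at 0.0261, 0.0286, 0.0142 and 0.0231. The 2 genes with few counts after LPS thus had the least close neighbours.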

How the data were processed

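The authors deposited whole-number read counts of 6 libraries in 1 table of 34751 transcript rows. TopHat2 2.0.13, HTSeq 0.5.4p3 and mm10 were used, per the submitters' processing notes. The sources used here do not give whether counting used strand or how it treated reads that transcripts share. The authors' exon lengths, also deposited, served CPM per kb. Rows were summed per symbol.

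edgeR 4.0.16 in R 4.3.3 filtered genes (filterByExpr, minimum count 10), set TMM factors and fitted its quasi-likelihood test (glmQLFit, glmQLFTest) to all 3 groups together, with Benjamini-Hochberg adjustment over 9389 genes and a threshold of 0.05. SE is the absolute log2 fold change over the square root of F. CPM use TMM-scaled sizes. Reads carry no molecular identifiers, so counts are not independent molecules. The 10 genes, the pathway and marker lists and the tests were chosen with earlier results of these data known. Named list genes are up to 4 called genes with the greatest change per list and comparison, a mean of at least 1 CPM and separate groups. Of these list genes, only those whose call held in all alternatives serve as examples in the Results, and not every such gene is reported. Calls of the cell type markers were not followed through the alternatives, apart from Mertk, which is also a list gene.

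The 15 alternatives covered scaling, filters, DESeq2 1.42.0, limma-voom (limma 3.58.1), 2 groups only, a replicate block, the largest transcript row and each library left out. The scripts were tested on simulated data. Replicates differed by more than sampling noise (mean chi-square 4.12 for SGA360+LPS, 6.14 for LPS and 43.7 for vehicle), and none was treated as a duplicate. Positions are 1-based on mm10, and promoters come from RefSeq on GRCm38.p6. Overlaps between genes come from GENCODE M21.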

Additional observations from a re-analysis of the deposited data

How the results depend on the processing

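The 6 called genes in LPS against vehicle and in SGA360+LPS against vehicle kept their call and direction in all 15 alternatives, and SGA360+LPS against LPS called 0 of the 8 tested genes in any of them. Genes called over the whole table ranged from 2091 to 5494 in LPS against vehicle (3413 with all libraries), from 1831 (without SGA360+LPS replicate 1) to 5315 (without vehicle replicate 2) in SGA360+LPS against vehicle (3107) and from 0 to 16 in SGA360+LPS against LPS (7) as each library was left out, and a lone library was then assumed to vary like the others. SGA360+LPS against LPS gave 17 with no filter on low counts, 11 with DESeq2 and 12 with 2 groups only. Upper-quartile scaling split the calls of SGA360+LPS against vehicle into 1359 higher and 1819 lower, against 1678 and 1429. Pathway genes called in SGA360+LPS against vehicle ranged from 36 to 69 (55 with all libraries; 36 without SGA360+LPS replicate 1). The cause was not tested.

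Only uncalled values changed sign. As libraries were left out, Mylip ranged from -0.21 to 0.182 in LPS against vehicle, from -0.23 to 0.165 in SGA360+LPS against vehicle and from -0.116 to 0.077 (log2) in SGA360+LPS against LPS. Lpcat3 ranged from -0.055 to 0.042 in LPS against vehicle, where it was 0.003 with no filter, and from -0.091 to 0.004 in SGA360+LPS against vehicle. Abca1 ranged from -0.073 to 0.088, Soat1 from -0.075 to 0.031 and Abcd2 from -0.309 to 0.64 in SGA360+LPS against LPS.

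Of the 32 list genes the rule named in LPS against vehicle, 5 (Amacr, Gpr183, Mboat1, Ncoa3 and Pecr) lost the call in at least 1 alternative, and of the 32 in SGA360+LPS against vehicle, 6 (Abca2, Agpat3, Ncoa1, Osbpl9, Pecr and Soat2).

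Replicate numbers were shared between groups but no label ties them, and the deviations correlated at 0.163 between SGA360+LPS and LPS, 0.0145 between SGA360+LPS and vehicle and -0.0066 between LPS and vehicle. With a replicate block LPS against vehicle called 3434 genes and 6 of those described here, SGA360+LPS against vehicle 3136 and 6, and SGA360+LPS against LPS 5 and 0. It changed no call among the 8 genes. With 2 libraries a group and few counts, changes of Abcd2 and Abcg3 between the LPS-treated groups were detectable only if large.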
